A study of Canis lupus familiaris with 13 samples.

Results

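Insulin sample 2 was compared with insulin sample 1 in thigh muscle (biceps femoris) of 4 dogs. All libraries whose labels name insulin stimulation and sample number 1 or 2 were taken, which gave 8 of the 13 RNA sequencing libraries of the study, 1 of each number from each dog. The dogs were wild type and 9 to 10 months old, and the biopsies were taken under local anaesthesia and flash frozen. Beside sample 1 (n = 4, dogs 1 to 4) and sample 2 (n = 4, dogs 1 to 4), the study held basal libraries numbered 0 (n = 3, dogs 2 to 4) and insulin libraries numbered 3 (n = 2, dogs 1 and 2). The labels give no dose or route of insulin, and they do not say what the sample number stands for, so no interval between samples 1 and 2 is known here. Every replicate is a separate animal, dog 1 has no basal library, and no group of dogs without insulin was sampled under numbers 1 to 3.

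Insulin acts on muscle fibres through its receptor and the kinase AKT. AKT sends glucose transporters to the cell surface, activates glycogen synthesis and protein synthesis, and keeps FoxO transcription factors out of the nucleus, so that FoxO target genes for sparing glucose and breaking down protein are transcribed less. Messenger RNAs that respond in this way differ in their half-lives, and a biopsy is itself an injury that muscle answers with stress and repair genes.

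No gene passed the test between samples 1 and 2. Of 14629 genes tested with the quasi-likelihood test of edgeR and paired by dog, 0 were higher and 0 were lower in sample 2 at an adjusted p under 0.05 (0%), and the smallest adjusted p was 0.902. At an unadjusted p under 0.05 there were 248 genes higher and 247 lower, or 3.38% of those tested. DESeq2 and limma-voom also called 0 genes, with 597 and 603 at an unadjusted p under 0.05. The median log2 fold change over all genes was -0.02, and the median standard error (SE) was 0.29.

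A p above the threshold does not show that a gene stayed level, so a second measure was used. A gene was termed level where the 95% confidence interval of its log2 fold change lay inside a 1.5-fold change in either direction (0.58 on the log2 scale). By this measure 3183 genes (21.8%) were level. The share followed abundance: 0.0748% of genes with a mean under 2 CPM (counts scaled to a common library size) were level, 14.2% of those from 2 to 8 CPM, 41.1% from 8 to 32 CPM, 50.2% from 32 to 128 CPM and 46.0% above 128 CPM. For most scarce genes, neither a change nor its absence could be shown at this depth and number of dogs. The gene lists below were not matched for abundance, so their shares of level genes stand beside these ranges unadjusted. The count of level genes was 4642 without dog 1 sample 2, 4329 without dog 1, 1335 without dog 2, 1269 without dog 3 and 1118 without dog 4.

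**Figure D1:**
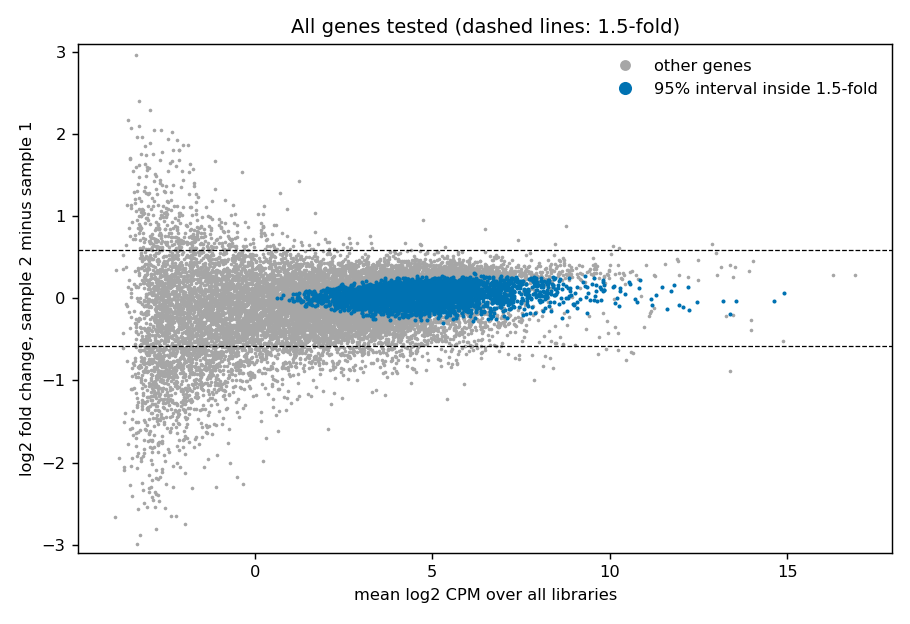
Log2 fold change of sample 2 minus sample 1 (vertical axis) against the mean log2 CPM over all libraries (horizontal axis) for the genes tested, with 8 genes beyond 3 on the vertical axis left off. Blue points are the 3183 genes whose 95% interval lay inside 1.5-fold (dashed lines), and they sit mostly at higher abundance.

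The 4 dogs differed in how far sample 2 lay from sample 1. Among 9279 genes with a mean of at least 2 CPM, the standard deviation (SD) of the difference in log2(CPM + 0.5) was 0.797 in dog 1, 0.468 in dog 2, 0.301 in dog 3 and 0.379 in dog 4. The share of genes that differed by over 2-fold was 17.4% in dog 1, 4.69% in dog 2, 0.733% in dog 3 and 2.27% in dog 4. Across genes, which are not independent replicates, the differences of dogs 2 and 3 ran together (r = 0.407), dog 1 was weakly like dogs 2 and 3 (0.168 and 0.233), and dog 4 ran against dogs 1, 2 and 3 (-0.190, -0.339 and -0.188).

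Library totals ranged from 45200416 to 81948641 counts. Skeletal muscle actin (ACTA1) took 10.4% to 13.7% of counts in 12 libraries. In dog 1 sample 2 it took 18.4%, and the mean correlation of that library with the rest (0.957) was below that of any other. All 13 defining markers of skeletal muscle fibres were present in samples 1 and 2, with a summed level of 281835 to 380773 CPM in sample 1 and 280512 to 432911 CPM in sample 2.

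PDK4 (ENSCAFG00000002129), the kinase that shuts down pyruvate dehydrogenase and so spares glucose, was the gene farthest below basal of those that passed a test in sample 2. Its basal level was 1191, 1513 and 2572 CPM in dogs 2, 3 and 4. In sample 1 it stood at 40.6, 58.0, 301 and 375 CPM in dogs 1 to 4, and in sample 2 at 34.5, 31.4, 262 and 186 CPM. All insulin libraries lay below all basal libraries, and sample 2 was the lower of the pair in 4 of 4 dogs, a direction that 6.80% of all genes tested also had. The log2 fold change between the pair was -0.56 ± 0.36 (SE) with a 95% interval from -1.36 to 0.24, so a further difference was neither shown nor bounded to 1.5-fold. Relative to basal it was -3.41 ± 0.40 (SE) in sample 1 (adjusted p = 0.0546) and -3.97 ± 0.40 (SE) in sample 2 (adjusted p = 0.0344). The share of all genes that lay wholly to 1 side of the basal libraries was not counted, for PDK4 or below. Many genes so described were chosen as different from basal in these libraries, which favours such separation.

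Against basal, 0 genes (0%) passed the test in sample 1 and 7 (0.0479%) in sample 2, with 438 and 724 genes at an unadjusted p under 0.05. These comparisons share the libraries of samples 1 and 2 with each other and with the comparison above. Basal libraries came from 3 dogs, and dog 1 entered the fit through its insulin libraries. Without dog 1 sample 2, the log2 fold change of sample 2 against basal went from -1.99 to -1.81 for TXNIP and from -2.54 to -2.60 for ARID5B. PDK4, TXNIP, TRIM63, ARID5B and LMOD2 fell in sample 2, and SLC35E4 and NPPC rose. Passing in sample 2 and not in sample 1 does not show that the samples differ, and the direct test between them called none of the 7. The counts also depended on single dogs. For sample 1 there were 5 calls without dog 1, 6 without dog 2, 0 without dog 3, 1 without dog 4 and 4 without dog 1 sample 2. For sample 2 there were 13 calls without dog 1, 7 without dog 2, 1 without dog 3, 1 without dog 4 and 11 without dog 1 sample 2. PDK4 was among these calls without dog 2 and without dog 3. It was not among them without dog 1, without dog 4 or without dog 1 sample 2, nor called with no abundance filter. With no term for the dog, 0 genes were called in sample 2. The method mattered too. DESeq2, limma-voom, another scaling and a fit with no abundance filter each called genes in sample 1 as well, with numbers in the last section.

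TXNIP (ENSCAFG00000011405), an inhibitor of glucose uptake whose transcript follows glucose, stood at 378, 540 and 442 CPM in the basal libraries of dogs 2, 3 and 4. It was at 106, 136, 179.6 and 106 CPM in sample 1 of dogs 1 to 4 and at 38.1, 118, 171 and 107 CPM in sample 2. Dogs 2, 3 and 4 differed by at most 0.20 on the log2 scale between the pair, and dog 1 was lower in sample 2. The log2 fold change was -0.39 ± 0.25 (SE, interval from -0.95 to 0.17), and it was -0.07 without dog 1 sample 2.

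**Figure D2:**
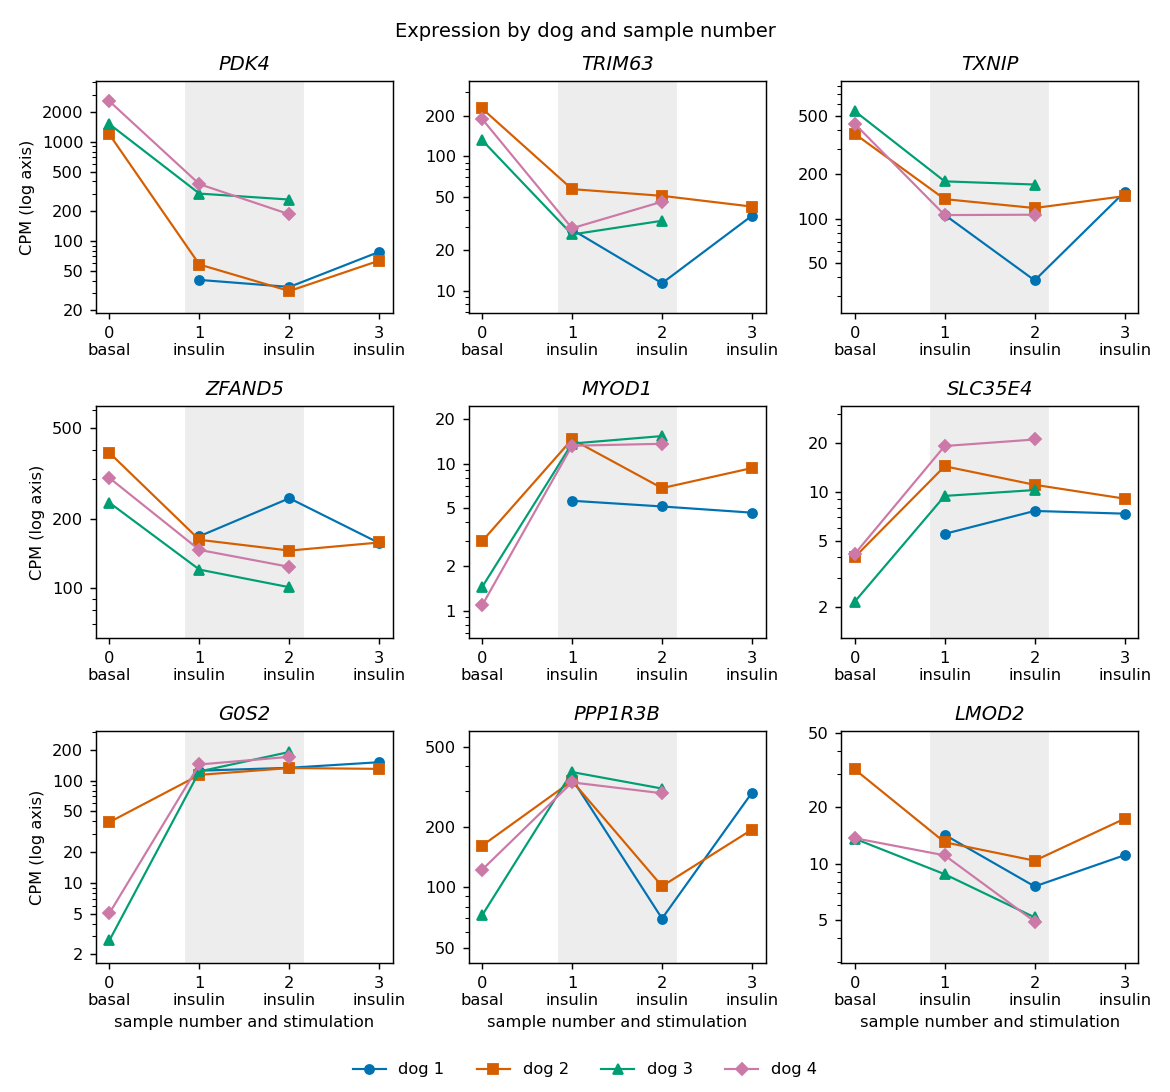
Level in CPM (log axis) of 9 genes in each library, by sample number (0 basal, 1 to 3 insulin) and dog (colours and symbols, with lines joining the libraries of 1 dog). The grey band marks samples 1 and 2, and PDK4, TRIM63 and TXNIP lie below all basal libraries and MYOD1, SLC35E4 and G0S2 above them in both.

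Genes of protein breakdown gave no call between the pair. TRIM63 (ENSCAFG00000012671), the muscle ubiquitin ligase MuRF1, was at 227, 132 and 190.0 CPM in the basal libraries of dogs 2, 3 and 4. It was at 28.5, 57.0, 26.2 and 29.2 CPM in sample 1 of dogs 1 to 4 and at 11.4, 50.9, 33.2 and 46.0 CPM in sample 2. Both groups lay below basal and overlapped each other, with 2 dogs higher and 2 lower, and the log2 fold change between them was -0.07 ± 0.30 (SE, interval from -0.72 to 0.58). The sign turned when dog 1 sample 2 (0.30) or all of dog 1 (0.27) was left out. Against basal, TRIM63 was at -2.21 ± 0.33 (SE) in sample 1 (adjusted p = 0.0851) and at -2.28 ± 0.33 (SE) in sample 2 (adjusted p = 0.0474).

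ZFAND5 (ENSCAFG00000001811), a proteasome activator, met the measure of a level gene. It was at 169, 163, 120.5 and 147 CPM in sample 1 and at 247, 146, 101 and 124 CPM in sample 2 of dogs 1 to 4, against 390.0, 236 and 303 CPM in the basal libraries of dogs 2, 3 and 4. Dogs 2, 3 and 4 were slightly lower in sample 2 and dog 1 was higher, and the log2 fold change was -0.02 ± 0.16 (SE, interval from -0.38 to 0.34). The value of dog 1 in sample 2 lay inside the basal range, and the other 7 libraries lay below it. HBP1 (ENSCAFG00000003939), a transcriptional repressor of cell cycle genes, was level too, with 38.5, 45.8, 51.6 and 61.4 CPM in sample 1 and 54.4, 41.9, 47.1 and 50.5 CPM in sample 2 (log2 fold change -0.01 ± 0.15, SE). All of its libraries in both samples lay below the basal range of 73.2 to 104 CPM.

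The other members of the FoxO programme also gave no call. Here and below, up to 3 members of each list were named because their p was lowest. That choice favours a low unadjusted p and agreement of the dogs, so neither is separate support. FOXO3 (ENSCAFG00000003783), a FoxO factor itself, was at 24.6, 17.3, 9.65 and 9.85 CPM in sample 1 and at 7.16, 12.5, 6.91 and 7.84 CPM in sample 2. It was lower in 4 of 4 dogs with overlapping groups, at a log2 fold change of -0.77 ± 0.23 (SE, unadjusted p = 0.0081), or -0.52 without dog 1 sample 2. FBXO32, the ubiquitin ligase atrogin-1, differed widely between dogs: it was at 37.1 and 2.38 CPM in samples 1 and 2 of dog 1 and at 55.1 and 69.2 CPM in those of dog 2. Its log2 fold change was -0.80 ± 0.58 (SE), or -0.19 without dog 1 sample 2. Of 27 FoxO target genes tested, 0 passed the test, 5 were level, 5 were lower in 4 of 4 dogs and 1 was higher in all 4, beside 21.8%, 6.80% and 7.02% of all genes. Their median log2 fold change was -0.10 between samples 1 and 2, beside medians of -0.39 in sample 1 and -0.66 in sample 2 against basal.

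Genes that stood above basal also gave no call between the pair. MYOD1 (ENSCAFG00000009066), the transcription factor that commits cells to the muscle lineage, was at 5.60, 14.7, 13.7 and 13.3 CPM in sample 1 and at 5.12, 6.82, 15.4 and 13.7 CPM in sample 2 of dogs 1 to 4. Its basal libraries held 2.97, 1.45 and 1.09 CPM in dogs 2, 3 and 4, below every insulin library. Dog 2 was lower in sample 2 and the other dogs were close to their sample 1, and the log2 fold change was -0.18 ± 0.32 (SE, interval from -0.89 to 0.52). MYOG (ENSCAFG00000010309), a partner of MYOD1 in muscle differentiation, was at 4.73, 4.50, 14.4 and 10.2 CPM in sample 1 and at 6.31, 5.72, 12.2 and 15.2 CPM in sample 2. Dogs 3 and 4 were the high dogs in both samples, and the log2 fold change was 0.26 ± 0.31 (SE).

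SLC35E4 (ENSCAFG00000012834), a member of a nucleotide sugar transporter family, rose above basal in sample 2 and was level between samples 1 and 2. It was at 5.55, 14.4, 9.46 and 19.1 CPM in sample 1 and at 7.66, 11.1, 10.3 and 20.9 CPM in sample 2, against 4.00, 2.14 and 4.18 CPM in the basal libraries of dogs 2, 3 and 4. The order of the 4 dogs was alike in both samples, and the log2 fold change was 0.08 ± 0.21 (SE, interval from -0.38 to 0.54). SLC35E4 was inside the 1.5-fold limit in 2 of 5 fits that left out a dog or dog 1 sample 2, and not in the fit with no term for the dog. Against basal the log2 fold change of SLC35E4 was 1.94 ± 0.24 (SE) in sample 1 (adjusted p = 0.0546) and 2.02 ± 0.24 (SE) in sample 2 (adjusted p = 0.0420). NPPC (ENSCAFG00000011135), the precursor of C-type natriuretic peptide, was scarcer, at 2.09, 4.01, 2.67 and 1.78 CPM in sample 1 and 4.68, 3.73, 3.21 and 2.22 CPM in sample 2. All 8 libraries lay above the basal range of 0.177 to 0.485 CPM, and the log2 fold change between the pair was 0.42 ± 0.34 (SE), or 0.14 without dog 1 sample 2.

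G0S2 (ENSCAFG00000030095), an inhibitor of the triglyceride lipase ATGL, was at 39.3, 2.74 and 5.06 CPM in the basal libraries of dogs 2, 3 and 4. It was at 125, 114, 122.9 and 144 CPM in sample 1 and at 133, 133, 191 and 171 CPM in sample 2 of dogs 1 to 4. Sample 2 was the higher of the pair in 4 of 4 dogs and all insulin libraries lay above basal, and the basal libraries, which share the estimate of spread, ranged widely. The log2 fold change was 0.34 ± 0.57 (SE). MID1IP1 (ENSCAFG00000014056), which promotes fatty acid synthesis by acetyl-CoA carboxylase, was level, at 31.1, 28.0, 25.4 and 25.1 CPM in sample 1 and 32.4, 28.2, 27.4 and 27.8 CPM in sample 2, above the basal range of 8.80 to 19.2 CPM.

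Of 20 genes that an earlier fit of these libraries had called between insulin and basal, 0 passed the test between samples 1 and 2, and 6 were level: DUSP10, a phosphatase of stress kinases, GTF2B, a general transcription factor, HBP1, MID1IP1, SLC35E4 and ZFAND5. The share was 30.0%, beside 21.8% of all genes tested and 41.1% to 50.2% of those above 8 CPM. The median log2 fold change of the 20 genes was -0.02 between the pair, beside -1.52 in sample 1 and -1.62 in sample 2 against basal. Since the list was chosen on these libraries, its distance from basal is no independent evidence. Without dog 1 sample 2, 7 of the 20 were level and the median was -0.08, and without dog 3 only 3 were level. Of 16 genes of a classical panel of insulin targets in muscle, 0 passed the test and 1 was level, KLF15, a factor of fasting metabolism. KLF15 was inside the limit in 2 of 5 leave-outs, and the panel held 0 level genes without dog 3 or dog 4 and 3 without dog 1. The panel median was -0.38, or -0.08 without dog 1 sample 2. Of the named level genes, GTF2B and HBP1 from this list, the squalene synthase FDFT1, the endoplasmic reticulum chaperone PDIA4, the proteasome subunit PSMD2 and the autophagy protein WIPI2 were inside the 1.5-fold limit in each of the 12 alternative fits at that limit.

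**Figure D3:**
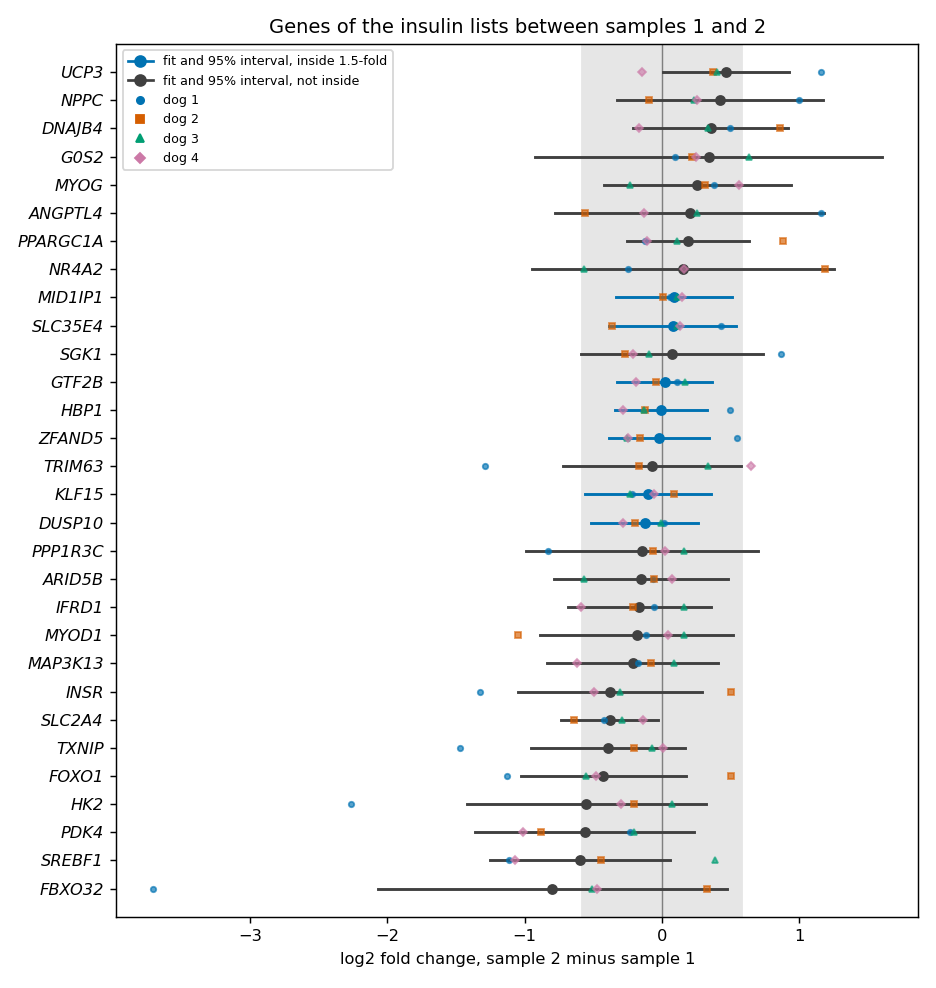
Log2 fold change of sample 2 minus sample 1 with its 95% interval (large points and bars) for 30 genes with a mean of at least 2 CPM from the insulin against basal list and the classical insulin panel, with G0S2, and the difference in each dog (small symbols). The grey band marks 1.5-fold, and the intervals of 7 genes (blue) lie inside it.

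Glucose handling gave values on both sides of 0. PPP1R3B (ENSCAFG00000006673), a subunit that directs protein phosphatase 1 to glycogen, was at 347, 339, 375 and 333 CPM in sample 1, above the basal values of 161, 72.4 and 122 CPM in dogs 2, 3 and 4. In sample 2 it was at 69.9, 101, 310.2 and 294 CPM in dogs 1 to 4. Dogs 1 and 2 were back in or under the basal range while dogs 3 and 4 were close to sample 1. The log2 fold change was -0.99 ± 0.42 (SE, interval from -1.92 to -0.06, unadjusted p = 0.0465), and it was -0.58 without dog 1 sample 2. Its relative PPP1R3C (ENSCAFG00000029146) did not share this pattern, with 414, 298, 359 and 315 CPM in sample 1 and 232, 284, 401 and 319 CPM in sample 2 (log2 fold change -0.14 ± 0.38, SE, or 0.08 without dog 1 sample 2).

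SLC2A4 (ENSCAFG00000016126), which encodes the insulin-responsive glucose transporter GLUT4, was at 209.8, 318, 149 and 194 CPM in sample 1 and at 157, 203, 121 and 177 CPM in sample 2. It was lower in 4 of 4 dogs, by most in dog 2, and the groups overlapped. The log2 fold change was -0.38 ± 0.16 (SE, unadjusted p = 0.0368). HK2, the hexokinase that traps glucose in the fibre, was at 27.4 and 5.31 CPM in samples 1 and 2 of dog 1 and within 16.1 to 42.6 CPM in both samples of dogs 2 to 4, and its log2 fold change was -0.55 ± 0.39 (SE), or -0.07 without dog 1 sample 2. PDP1, the phosphatase that opposes PDK4, was lower in 4 of 4 dogs (log2 fold change -0.49 ± 0.20, SE), and -0.30 without dog 1 sample 2. Of 14 genes of glucose uptake and phosphorylation 4 were level, of 17 glycogen genes 9, and of 11 glycolytic enzymes 6, and no gene of these lists passed the test. These shares stand beside 21.8% of all genes and 41.1% to 50.2% of those above 8 CPM. The 9 level glycogen genes became 3 without dog 2, 4 without dog 3 and 4 without dog 4.

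Fat metabolism was likewise mixed. UCP3 (ENSCAFG00000042759), a mitochondrial carrier that follows fatty acid supply, was at 284, 399 and 475 CPM in the basal libraries of dogs 2, 3 and 4, at 85.5, 161, 159 and 203 CPM in sample 1 and at 192, 209, 211 and 184 CPM in sample 2. All insulin libraries lay below basal, dogs 1, 2 and 3 were higher in sample 2 than in sample 1, and the log2 fold change was 0.47 ± 0.21 (SE, unadjusted p = 0.0484), or 0.22 without dog 1 sample 2. ACSL1, which activates fatty acids with coenzyme A, was at 185, 432, 347 and 448 CPM in sample 1 and 144, 288, 277 and 361 CPM in sample 2, lower in 4 of 4 dogs at -0.40 ± 0.15 (SE, unadjusted p = 0.0190). LPL, lipoprotein lipase, was lower in dogs 1, 2 and 4 and higher in dog 3 (log2 fold change -0.73 ± 0.27, SE). UCP3, ACSL1 and LPL were the 3 genes named for lowest p in their list, so their low p is no separate support. ANGPTL4, an inhibitor of LPL, was within 2.14 to 11.95 CPM in all 8 libraries, below the basal values of 6.25, 56.8 and 42.1 CPM in the same dog for dogs 2, 3 and 4. Of 24 genes of fatty acid oxidation 11 were level (45.8%), and of 19 genes of fatty acid synthesis 3 (15.8%). Of 21 genes of cholesterol synthesis and uptake 8 were level (38.1%). Beside these stand 21.8% of all genes tested and 41.1% to 50.2% of those above 8 CPM. The 11 level oxidation genes became 1 without dog 2, 0 without dog 3 and 0 without dog 4.

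The genes of lowest p between samples 1 and 2 were not mainly classical insulin targets. They were chosen on these same differences, so agreement of the dogs or groups without overlap are no separate support. The share of all genes without overlap was not counted. LMOD2 (ENSCAFG00000001775), leiomodin 2, which helps thin filaments of the sarcomere to elongate, had the lowest p of the genes with a symbol and a mean of at least 2 CPM (unadjusted p = 0.00121). It was at 14.2, 13.002, 8.78 and 11.1 CPM in sample 1 and at 7.56, 10.4, 5.17 and 4.91 CPM in sample 2 of dogs 1 to 4, against 31.9, 13.6 and 13.7 CPM in the basal libraries of dogs 2, 3 and 4. Each dog was lower in sample 2 than in sample 1 and each of dogs 2 to 4 was lower in sample 1 than in basal. The log2 fold change was -0.81 ± 0.19 (SE) between the pair (adjusted p = 0.902), -0.69 ± 0.21 (SE) in sample 1 against basal (adjusted p = 0.956) and -1.50 ± 0.21 (SE) in sample 2 against basal (adjusted p = 0.0458). Over the 12 alternative fits the first value ranged from -0.95 to -0.69, with adjusted p from 0.670 to 1.

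KDM5B (ENSCAFG00000010452), a histone H3 lysine 4 demethylase, differed by nearly the same amount in each dog. It was at 14.7, 18.1, 16.9 and 16.7 CPM in sample 1 and at 9.93, 12.9, 12.02 and 11.9 CPM in sample 2, with no overlap, and the log2 fold change was -0.51 ± 0.16 (SE, unadjusted p = 0.00796). NCEH1, a cholesterol ester hydrolase (-0.91 ± 0.25, SE), TIMP4, an inhibitor of matrix metalloproteinases (-1.13 ± 0.33, SE), VPS13D, a lipid transfer protein (-0.70 ± 0.21, SE, or -0.45 without dog 1 sample 2) and DIS3L2, an exoribonuclease (-0.57 ± 0.18, SE) were also lower in 4 of 4 dogs.

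In the other direction NCAPH2 (ENSCAFG00000000603), a subunit of condensin II, was at 30.4, 32.8, 25.5 and 25.7 CPM in sample 1 and at 55.03, 40.9, 37.0 and 38.0 CPM in sample 2. The groups did not overlap, the log2 fold change was 0.57 ± 0.14 (SE, unadjusted p = 0.00207), and the basal libraries, at 44.2, 30.1 and 36.8 CPM, overlapped both. GCAT (ENSCAFG00000001456), an enzyme of threonine breakdown in mitochondria, was at 23.7, 23.7, 17.7 and 19.2 CPM in sample 1 and at 44.6, 49.0, 24.4 and 21.5 CPM in sample 2, with dogs 1 and 2 far apart and dog 4 nearly equal. SERF2 (ENSCAFG00000000320), a small protein that promotes amyloid aggregation, was at 81.2, 75.7, 60.1 and 81.4 CPM in sample 1 and at 144, 114, 94.0 and 94.4 CPM in sample 2, again without overlap. NECAB3 (0.80 ± 0.24, SE), RBM18 (0.49 ± 0.16, SE), LRWD1 (0.40 ± 0.13, SE), MUS81 (0.46 ± 0.15, SE) and FASTK (0.39 ± 0.13, SE) made up the 8 genes of lowest p that were higher, all in 4 of 4 dogs.

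**Figure D4:**
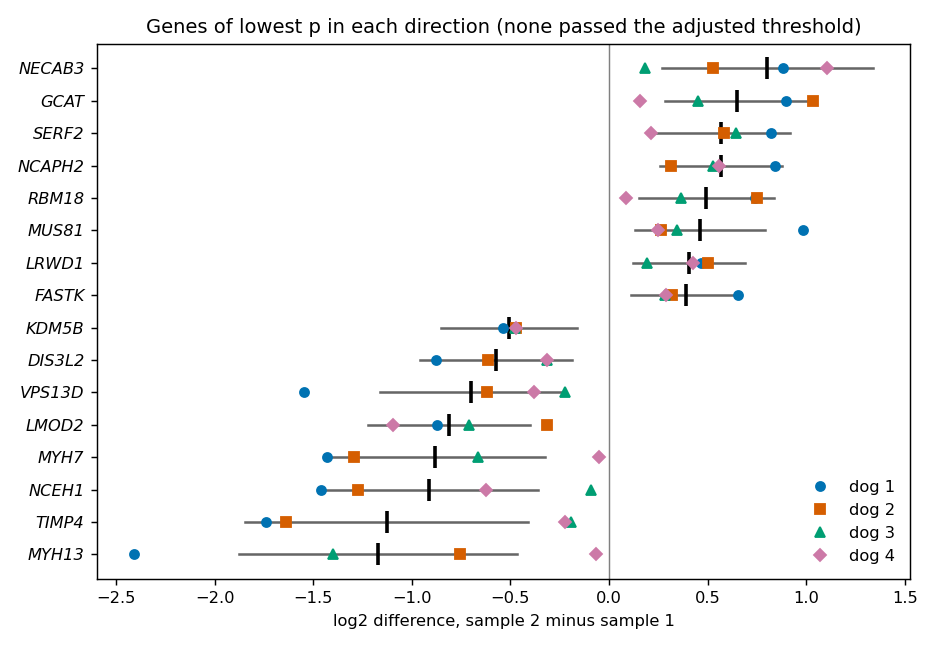
Log2 difference of sample 2 minus sample 1 in each dog (symbols), with the fitted fold change (black mark) and its 95% interval (grey bar), for the 8 genes of lowest p in each direction. None passed the adjusted threshold. All 4 dogs lie on 1 side of 0 for every gene shown, which the choice by lowest p favours. Of all genes tested, 7.02% were higher and 6.80% lower in 4 of 4 dogs.

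Contractile genes of slow and fast fibres gave no call, and single members differed in both directions. MYH7 (ENSCAFG00000011619), the slow myosin heavy chain, was at 9424, 14733, 12821 and 16369.6 CPM in sample 1 and at 3491, 6007, 8079 and 15812 CPM in sample 2. It was lower in 4 of 4 dogs, by least in dog 4, and the log2 fold change was -0.88 ± 0.25 (SE, unadjusted p = 0.0059), or -0.70 without dog 1 sample 2. TNNI1, slow troponin I, was lower in 4 of 4 dogs as well (-0.42 ± 0.17, SE). ACTN3, the alpha-actinin of fast fibres, was at 2002, 2423, 1591 and 1420.5 CPM in sample 1 and at 2536, 3600.3, 1837 and 2009 CPM in sample 2, higher in 4 of 4 dogs (0.41 ± 0.15, SE, unadjusted p = 0.0235).

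Over the whole lists the medians were small, while members ran from -0.88 to 0.26 (slow) and from -1.05 to 0.46 (fast). Of 10 slow fibre genes 0 passed the test, 3 were lower at an unadjusted p under 0.05 and 2 were level, and the median was -0.15. Of 12 fast fibre genes 0 passed, 4 were higher and 1 lower at an unadjusted p under 0.05 and 3 were level, with a median of 0.11. Of all genes tested, 3.38% were at an unadjusted p under 0.05 and 21.8% were level. Above 8 CPM, 41.1% to 50.2% were level. The fast gene that was lower was MYH4, a fast myosin heavy chain (-1.05 ± 0.32, SE). MYH13 (ENSCAFG00000017460), a myosin of eye and throat muscle, was also lower, at 17.8, 18.2, 16.4 and 13.4 CPM in sample 1 and 2.95, 10.6, 5.91 and 12.7 CPM in sample 2 (-1.17 ± 0.32, SE, or -0.79 without dog 1 sample 2). Myosin heavy chain genes are near copies of each other, so reads may have been split among them and the values of MYH4, MYH7 and MYH13 are uncertain. The giant filament gene TTN was lower in 4 of 4 dogs (-0.51 ± 0.21, SE), and TPM1, tropomyosin 1, was higher in 4 of 4 dogs, without overlap (0.38 ± 0.16, SE).

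Of 34 cytosolic ribosomal protein genes 0 passed the test and 30 were level (88.2%, beside 21.8% of all genes tested and 41.1% to 50.2% of those above 8 CPM), with a median log2 fold change of 0.07. Their fitted values hid dogs that differed: the median difference was -0.42 in dog 1, 0.35 in dog 2, 0.33 in dog 3 and 0.07 in dog 4. Without dog 1 sample 2, 21 of the 34 were level at a median of 0.23, and without dog 1, 2, 3 or 4 the numbers were 16, 7, 19 and 11. RPL7 and RPS4X, subunits of the large and small ribosomal subunit, were at 0.47 ± 0.19 and 0.32 ± 0.14 (SE), and RPL7 was at 0.25 without dog 1 sample 2. Ribosomal protein genes have many processed copies in the genome, which may share their reads.

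Proteasome subunits and oxidative phosphorylation genes had medians above 0 in dogs 1, 2 and 3, and dog 1 had the largest. In the same library of dog 1 ACTA1 took more of the counts than elsewhere, and the part of RNA quality or transcript length in its values was not tested. Of 27 proteasome subunits 0 passed the test and 13 were level (48.1%). Of all genes tested 21.8% were level, and of those above 8 CPM 41.1% to 50.2%. The median of the proteasome subunits was 0.27, made up of 0.65 in dog 1, 0.27 in dog 2, 0.12 in dog 3 and -0.11 in dog 4. Without dog 1 sample 2 all 27 were level, at a median of 0.09, and without dog 1, 2, 3 or 4 the numbers were 26, 7, 3 and 1. PSMD2, a subunit of the regulatory particle, was at 232, 273, 258 and 324 CPM in sample 1 and at 252, 257, 227 and 342 CPM in sample 2, with a log2 fold change of -0.02 ± 0.13 (SE), 1 of the narrowest intervals. Of 25 oxidative phosphorylation genes 8 were level (32.0%) at a median of 0.29, with 0.66, 0.30, 0.11 and -0.08 in dogs 1 to 4. Without dog 1 sample 2 there were 22 level genes at a median of 0.05. Without dog 1, 2, 3 or 4 the level genes numbered 21, 4, 2 and 2.

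Ribosome biogenesis factors gave 24 level genes of 42 (57.1%), endoplasmic reticulum chaperones 9 of 17 (52.9%), autophagy genes 9 of 20 (45.0%) and heat shock genes 8 of 18 (44.4%). Of all genes from 8 CPM up, 41.1% to 50.2% were level by range of abundance. Without 1 dog these counts ranged from 8 to 25, 5 to 13, 6 to 15 and 3 to 9, lowest when dog 2, 3 or 4 was left out. FDFT1, which commits farnesyl units to cholesterol, was at 142, 132, 146 and 194 CPM in sample 1 and 170.3, 137, 145 and 166 CPM in sample 2 (0.02 ± 0.13, SE). Of translation factors and mTORC1 genes 4 of 22 were level (18.2%). Of all genes tested 21.8% were level, and of those above 8 CPM 41.1% to 50.2%. The level translation and mTORC1 genes numbered 14 without dog 1 sample 2 and 2 without dog 2 or dog 4. EIF4E, the cap binding protein, was at 40.2, 36.0, 38.5 and 49.4 CPM in sample 1 and at 80.0, 60.8, 48.9 and 40.1 CPM in sample 2, higher in 3 of 4 dogs (0.46 ± 0.20, SE, or 0.25 without dog 1 sample 2).

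For genes that answer quickly to many stimuli the data bound little. Of 29 immediate early genes 0 passed the test and 1 (3.45%) was level, BTG1. Of 33 genes of injury and inflammation 0 passed and 1 was level (3.03%). Of all genes tested 21.8% were level, with 0.0748% of those under 2 CPM and 14.2% of those from 2 to 8 CPM. Above 8 CPM the share was 41.1% to 50.2%, and the abundance of these 2 lists was not matched. The medians of the immediate early and injury lists were -0.05 and -0.04, while single members ranged from -2.04 to 1.38 in the injury list. KLF10 (ENSCAFG00000000638), a factor of transforming growth factor signalling, was at 27.3, 45.0, 77.9 and 52.1 CPM in sample 1 and at 14.3, 24.3, 66.7 and 50.8 CPM in sample 2, lower in 4 of 4 dogs (-0.51 ± 0.21, SE, unadjusted p = 0.0318). Its log2 difference was larger in dogs 1 and 2 (-0.91 and -0.88) than in dogs 3 and 4 (-0.22 and -0.04), and the fold change was -0.35 without dog 1 sample 2. SGK1, a kinase induced by glucocorticoids and stress, had 18.7 to 162 CPM in basal libraries, 7.97 to 41.5 CPM in sample 1 and 13.2 to 34.4 CPM in sample 2, and its interval ran from -0.59 to 0.74.

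Clock genes form a feedback loop that cycles with the time of day, which the labels do not give. Of 14 core clock genes 0 passed the test, 3 were level (21.4%, beside 21.8% of all genes tested) and the median was -0.13. CRY1 and CRY2, repressors of the loop, were among the level genes. NR1D2, another repressor, was at 16.1, 24.8, 14.6 and 15.5 CPM in sample 1 and at 3.33, 16.4, 14.0 and 10.3 CPM in sample 2, and PER3, a period gene, at 3.48, 7.002, 5.43 and 5.44 CPM and at 2.72, 5.19, 4.57 and 4.65 CPM. Both were lower in 4 of 4 dogs, at -0.75 ± 0.40 (SE) and -0.32 ± 0.24 (SE), and neither was at an unadjusted p under 0.05. Without dog 1 sample 2 the value of NR1D2 was -0.31.

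Of 18 genes of vascular growth and hypoxia 0 passed the test and 2 were level (11.1%, beside 21.8% of all genes tested). Their median was -0.14, with a range from -1.23 to 0.48. FLT1, a receptor for vascular endothelial growth factor, was at 20.5, 26.8, 31.5 and 13.2 CPM in sample 1 and at 6.16, 11.98, 20.2 and 14.7 CPM in sample 2, lower in dogs 1, 2 and 3 and higher in dog 4 (-0.90 ± 0.30, SE, unadjusted p = 0.0131). EPAS1, a hypoxia factor rich in endothelium, was likewise lower in dogs 1, 2 and 3 and higher in dog 4, at 70.0, 69.2, 71.2 and 24.7 CPM and then 3.85, 27.4, 51.8 and 36.8 CPM. Its log2 fold change was -1.23 ± 0.55 (SE), or -0.55 without dog 1 sample 2, and that of FLT1 without this library was -0.75. HIF1A, the hypoxia factor present in most cells, was lower in 4 of 4 dogs (-0.33 ± 0.15, SE), dog 4 included. The 10 endothelial markers had a median of -0.37, with -0.66, -1.28, -0.32 and 0.36 in dogs 1 to 4. Their summed level was 216 to 397 CPM in sample 1 and 154 to 302 CPM in sample 2, and all 10 were below 0 in the fit. The 10 markers of smooth muscle and pericytes had a median of -0.66, with -0.93, -0.83, -0.82 and 0.52 in dogs 1 to 4. Their sum was 8345 to 11262 CPM in sample 1 and 4977 to 11505 CPM in sample 2, higher in 3 of 4 dogs. Without desmin, which fibres also express, it was 159 to 270 CPM in sample 1 and 107 to 235 CPM in sample 2. None of these 20 markers passed the test, none was at 0 in all 8 libraries, and their part in the values of FLT1 and EPAS1 was not tested. No fall of these markers was shown, and dog 4 had medians above 0 in both lists. In whole biopsies, a change in the number of vessel cells and a change in RNA per vessel cell cannot be told apart.

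**Figure D5:**
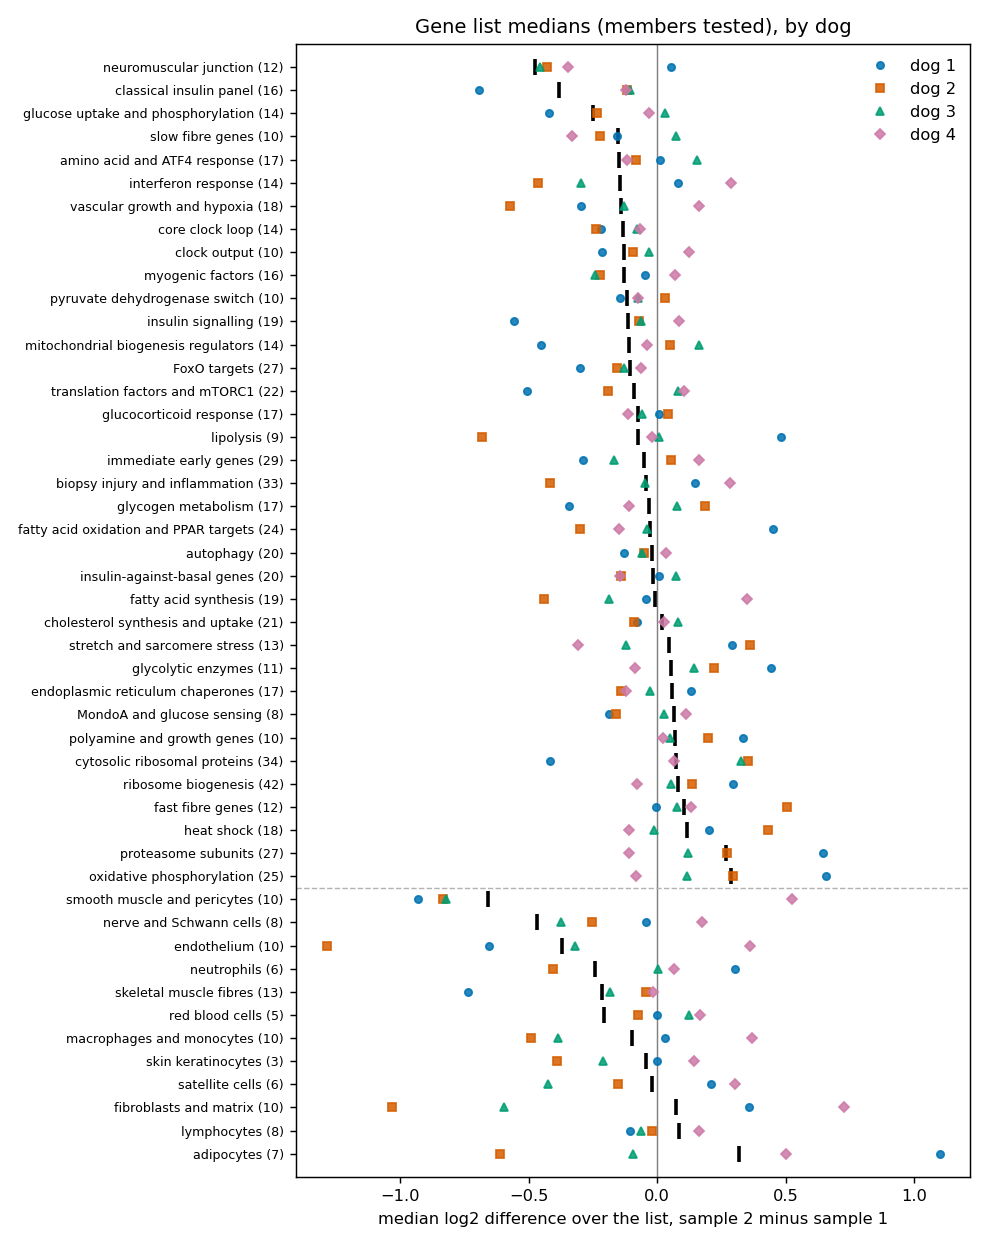
Median log2 difference of sample 2 minus sample 1 over each gene list, in each dog (symbols) and from the fit (black marks), with the number of members tested in parentheses and marker lists under the dashed line. Dog 4 lies above 0 for endothelium and for smooth muscle and pericytes, where dogs 1, 2 and 3 lie below.

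Markers of other cells went in no common direction over the dogs. Summed fibroblast markers were 360.3 to 1013 CPM in sample 1 and 475 to 1243 CPM in sample 2, higher in 2 of 4 dogs. Neutrophil markers summed to 23.8 to 32.005 CPM and 25.2 to 39.3 CPM, and macrophage markers to 36.0 to 45.5 CPM and 19.2 to 48.0 CPM. Of 12 genes of the neuromuscular junction 1 was level (8.33%, beside 21.8% of all genes tested) and the median was -0.47. CHRNA1, the alpha subunit of the muscle acetylcholine receptor, was lower in 4 of 4 dogs but scarce, at 2.12, 0.855, 3.30 and 7.33 CPM in sample 1 and 0.978, 0.603, 2.69 and 2.87 CPM in sample 2 (-0.89 ± 0.38, SE).

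Dogs 1 and 2 also gave a sample 3, which has too few dogs here for a comparison and is described only. PDK4 was at 78.1 and 63.6 CPM in sample 3 of dogs 1 and 2, above both of their earlier numbered samples. PPP1R3B, low in sample 2 of these dogs, was at 296 and 194 CPM in sample 3. LMOD2 was at 11.1 and 17.4 CPM, and MYH7 at 7520 and 7533 CPM, in both dogs above sample 2. TXNIP of dog 1, low in sample 2, was at 152 CPM in sample 3, and its EPAS1 at 26.4 CPM. KDM5B was at 11.4 and 17.4 CPM and NCAPH2 at 35.9 and 27.7 CPM, between samples 1 and 2 of the same dog except for NCAPH2 of dog 2, which lay below both.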

How the data were processed

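All results rest on the raw counts that the authors deposited, which are whole numbers. The deposited normalized signal equals these counts divided by 1 size factor per library and served only to check columns. The submitters' processing notes name Bowtie 0.12.2 and CanFam3.1, and the counting program, annotation and strand setting are not given in the sources used here. Strand is not marked by the kit, so overlapping genes may share counts. The table held 30951 genes, 17994 with a symbol. In R 4.3.3, edgeR 4.0.16 (filterByExpr, TMM, robust quasi-likelihood fit) was run on all 13 libraries with sample number and dog as factors. P values were adjusted by Benjamini-Hochberg over 14629 genes. Intervals used t quantiles (median 11.0 total degrees of freedom, of which 6 are residual). CPM are TMM scaled, dog differences use log2(CPM + 0.5), and the script was tested on simulated data.

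Libraries pair by dog, as the titles name the animal. Deviations from the group means correlated between samples 1 and 2 of the same dog at 0.238, 0.408, 0.645 and 0.177 in dogs 1 to 4, and at -0.317 to 0.216 between different dogs. Replicates differed far beyond counting error (chi-square per gene from 144 to 789). Named genes had a mean log2 CPM of at least 1 and a symbol. The rule took the 8 of lowest p in each direction, since none passed, up to 3 of lowest p from each of 36 pathway lists, 10 level genes with narrow intervals, genes called against basal, and all members of the insulin against basal list and the classical insulin panel. Genes of the last 2 lists were exempt from the minimum and symbol. The 48 lists (36 of pathways and 12 of cell markers) held 804 symbols, of which 712 were in the table and 687 were tested. Members and lists were chosen with earlier results of these data known. Alternatives were DESeq2 1.42.0, limma-voom 3.58.1, other scaling, filters and margins, the 8 libraries alone, no dog term, and leaving out each dog or dog 1 sample 2. No sequence or position is given.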

Additional observations from a re-analysis of the deposited data

Results flagged for a closer look

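Values by dog were screened within sample 1 and within sample 2, each with 4 dogs, for a library whose gap to its nearest neighbour exceeded Dixon's 95% limit. Of 120 groups screened 11 had such a library. For independent groups of normal values, chance gives about 1 in 20. The groups here share libraries and hold genes chosen with these data known, so no excess over chance can be read from the number. In sample 1 of dog 1, PDP1 (64.1 CPM) and DNAJB4 (82.4 CPM) stood above and MYOD1 (5.60 CPM) below the other dogs. In sample 1 of dog 2, TRIM63 (57.0 CPM), DUSP10 (57.8 CPM) and NR1D2 (24.8 CPM) stood above. In sample 1 of dog 4, EPAS1 (24.7 CPM) stood below. In sample 2 of dog 1, MID1IP1 (32.4 CPM) stood above, and the summed markers of smooth muscle and pericytes, desmin included, stood below at 4977 CPM. In sample 2 of dog 2, FOXO3 (12.5 CPM) and DUSP10 (50.5 CPM) stood above, so dog 2 was the high dog for DUSP10 in both samples. No test compares these libraries with the rest.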

How the results depend on the processing

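The number of genes called between samples 1 and 2 was 0 in each direction in all 12 alternatives, with 252 to 893 genes at an unadjusted p under 0.05 and the smallest adjusted p (0.670) without dog 4. Without the replicate block for the dog there were 0 calls, 300 genes at an unadjusted p under 0.05 and 2538 level genes. The number of genes level between sample 1 and sample 2 ranged from 1118 to 4642 when a dog or dog 1 sample 2 was left out, and was 53 with the narrower margin tried and 8334 within 2-fold. Calls in sample 1 against basal numbered 40 with DESeq2, 4 with limma-voom, 4 with RLE scaling and 16 with no filter, and 0 to 6 in the leave-outs. Calls in sample 2 against basal numbered 73 with DESeq2, 10 with limma-voom, 8 with RLE scaling, 28 with no filter, 0 with a mean CPM of at least 1 and 0 with no replicate block, and 1 to 13 in the leave-outs. The cause was not tested. Of the alternative list medians 546 moved by less than the SD over dogs and 30 by more. No scaling moved the median of all genes by over 0.1. The median interval reached 1.27 to either side under 2 CPM, 0.380 from 32 to 128 CPM and 0.385 above 128 CPM.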
